A study of Mus musculus with 6 samples.

Results

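The sarcomere genes encode the proteins of the contractile unit of striated muscle, and 36 of them were followed on 6 Affymetrix arrays of sorted mouse embryo cells. The members were a list of thick filament, thin filament, Z disc and M band genes and their close partners, and a gene was taken only where the platform annotation gave a probe set that names it and no other gene. All 36 had such a probe set. They had 75 of the array's 45101 probe sets between them, and are 36 of 18193 genes measured. Where a gene had several probe sets, the one with the highest mean over the 6 arrays stood for it.

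The cells were sorted by a yellow fluorescent protein that Cre, expressed from Isl1, switches on at the Rosa locus, at embryonic day 9, and the labels call them cardiac progenitors of the precardiac mesoderm. The wild-type group has 3 samples, and the mutant group has 3 samples from embryos with Isl1-cre, Rosa-YFP and Beta-catenin (loxP ex3), in which loss of the third exon leaves a β-catenin that escapes breakdown. The genotype of the wild-type embryos beyond this name is not given, but the sort for YFP applied to both groups. Cre acts in every cell that has expressed Isl1 and in its descendants, so the sorted population can hold other lineages than heart, and the number of embryos in a sample is not given, so that the tests measure only how far these 6 samples differ. Below, the values of a gene are listed for wild-type replicates 1, 2 and 3 and, after "against", for mutant replicates 1, 2 and 3, all on the log2 scale.

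A sarcomere is built of myosin thick filaments that slide along actin thin filaments. Calcium binding to troponin, on the thin filament, lets tropomyosin move aside and frees actin for myosin. Titin spans from the Z disc, where thin filaments are anchored by α-actinin, to the M band, where myomesins link the thick filaments. The early heart tube is known to use atrial, ventricular and skeletal isoforms of these proteins side by side.

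The 6 arrays were alike over all genes, with correlations between 0.979 and 0.989, but on the first principal component (36.4% of the variance) mutant replicate 1 lay at 1.21, between the wild-type arrays (−21.6 to −20.5) and the other mutant arrays (29.4 and 33.0). The sex-linked gene Kdm5d read 2.82 and 3.52 (log2) on wild-type arrays 2 and 3 and at least 8.67 on the other 4. By this gene, embryo sex was not balanced between the groups or within the wild-type group. The part of sex in the differences was not tested. Ctnnb1, the β-catenin gene, had a difference of −0.00 between the groups, but whether its probes lie in the deleted exon is not known, so this checks no genotype. Isl1 itself read 9.24, 9.36 and 9.77 against 8.72, 8.61 and 7.49. Nkx2-5, a defining cardiac transcription factor, averaged 4.82 and 4.36, at or below the background level of 4.85. That level is the 95th percentile of 27 bacterial control probe sets. By the same measure 35 of the 36 sarcomere genes were above background, with Myoz2 the exception, as were 14125 of all 18193 genes. Each gene was read from its brightest probe set, and 10 of the 75 member probe sets lay at or below background.

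None of the 36 sarcomere genes passed the test between mutant and wild type. The test was limma over all 18193 genes with Benjamini-Hochberg adjustment, which called 12 genes (0.066% of those tested), all higher in mutant cells. The number of calls became 0 with the replicate number as a block, and also when the second wild-type array or the second or last mutant array was dropped, and it became 81 higher and 11 lower when mutant replicate 1 was dropped. At an unadjusted p under 0.05 there were 4 lower members (Tnnt2, Actn2, Myl4 and Xirp1; 11.1% of 36, against 4.84% of all genes) and 2 higher members (Tpm2 and Pdlim5; 5.56%, against 6.76%). The smallest adjusted p of a member was 0.187, for Tnnt2, whose p ranked 143 among all genes. Without regard to a test, 25 members (69.4%) read lower in mutant cells and 11 higher, against 55.3% and 44.7% of all genes. The median log2 difference (positive where mutant cells were higher) was −0.15 for the members and −0.03 for all genes.

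The intervals bound what these 6 arrays allow for the probe set that stands for each gene. For 24 of the 36 genes the 95% interval of the difference lay within a log2 change of 1 either way, that is, within a doubling or halving. It reached −1 or beyond for 9 genes and 1 or beyond for 5, among them Myl2 and Myom2 on both sides. Some other probe sets of genes within these bounds passed them. Their intervals reached as far as −1.53 (Nebl), −1.32 (Ldb3), 1.56 (Pdlim5) and 1.10 (Tpm2) in the fit over probe sets. That Pdlim5 probe set averaged below background in wild-type cells. The standard errors (SE) ran from 0.12 for Actn2 to 0.89 for Myom2, with a median of 0.21. In 30 of 36 members (83.3%) the difference between groups was smaller than the range of the 3 wild-type values, which held for 76.5% of all genes.

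**Figure D1:**
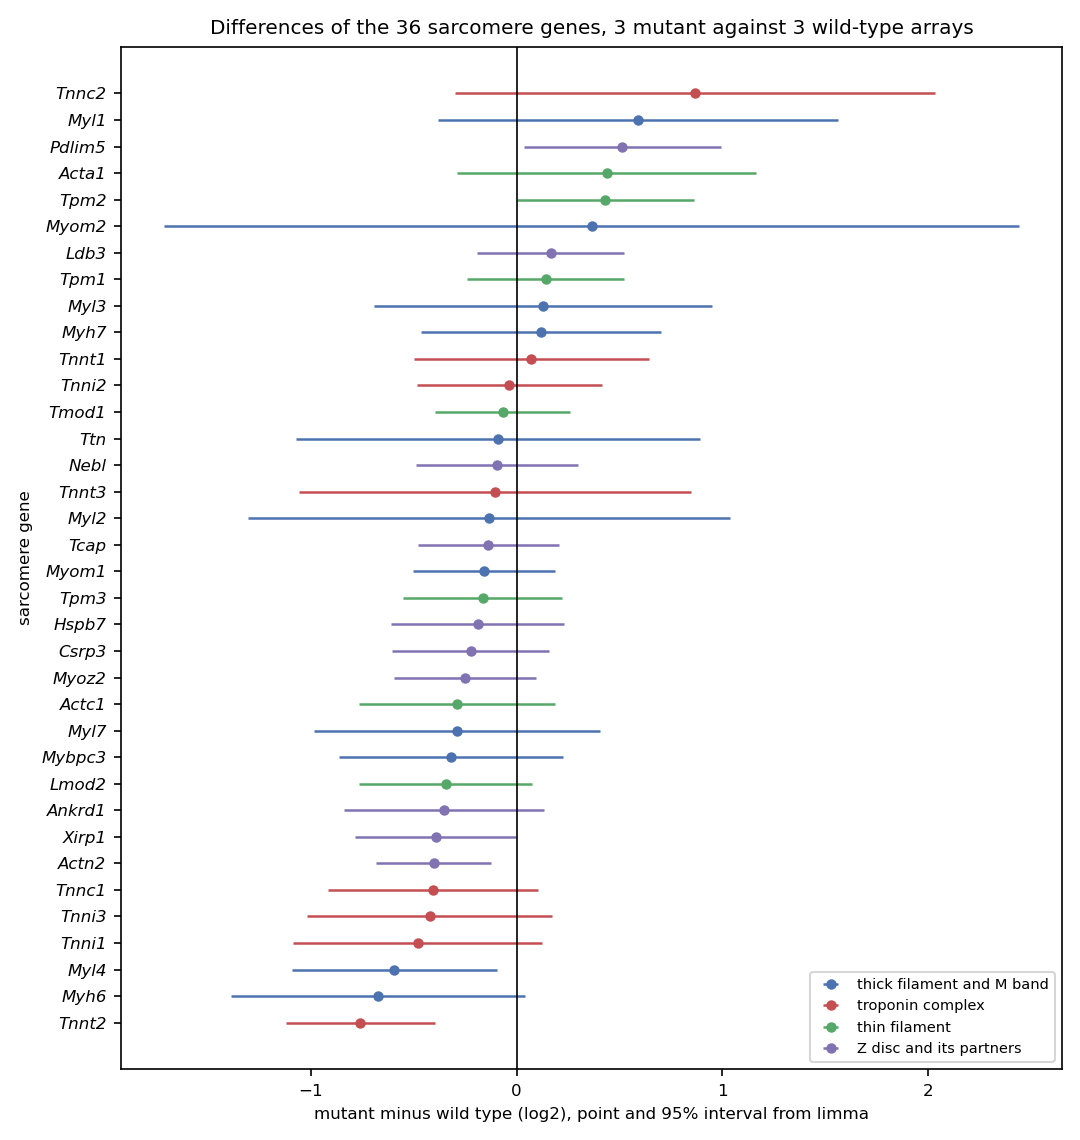
Difference of each of the 36 sarcomere genes between 3 mutant and 3 wild-type arrays, in log2 units and positive where the mutants were higher (horizontal axis), ordered by size and coloured by role; points are the differences and bars the 95% intervals from limma. The intervals of Tnnt2, Myl4, Actn2 and Xirp1 lie below 0 and those of Pdlim5 and Tpm2 above it, before adjustment for the number of genes tested; the other 30 cross 0.

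In 5 of 36 members (13.9%) all mutant values lay below all wild-type values, against 9.18% of all genes (17.8% in either direction). These were Tnnt2, Actn2, Lmod2, Xirp1 and Myoz2. In 0 of 36 did all mutant values lie above, against 8.64% of all genes. Apart from Tnnt2 and Actn2, where the groups stood 0.46 and 0.22 apart, the gaps were 0.02 (Xirp1, Lmod2) and 0.01 (Myoz2), smaller than the spread within either group. Without the dimmest 40% of genes only Tnnt2 of these 5 is tested, 1 of 29 members (3.45%, against 8.55% of the genes left).

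The promoters of 4 members from 4 protein families are shown, a troponin, an actin and a myosin that read lower in mutant cells and a tropomyosin that read higher. Each is the 250 bases before an annotated start in the RefSeq table (GRCm38.p6): Tnnt2 at chr1:135836084-135836333 on the plus strand (the upstream of the gene's pair of listed starts), and on the minus strand Actc1 at chr2:114052876-114053125, Myh6 at chr14:54966608-54966857 and Tpm2 at chr4:43523555-43523804. Capitals mark any match, on either strand, to the CArG box bound by SRF, the MEF2 site, the M-CAT core CATTCC bound by TEAD factors, the GATA core GATAA and the TCF/LEF core CTTTGA; the matches shown do not overlap each other.
Tnnt2: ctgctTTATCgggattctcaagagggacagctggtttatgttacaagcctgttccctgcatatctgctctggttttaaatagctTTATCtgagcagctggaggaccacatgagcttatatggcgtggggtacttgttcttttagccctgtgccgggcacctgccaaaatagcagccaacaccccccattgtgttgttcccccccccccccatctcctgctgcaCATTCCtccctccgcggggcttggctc
Actc1: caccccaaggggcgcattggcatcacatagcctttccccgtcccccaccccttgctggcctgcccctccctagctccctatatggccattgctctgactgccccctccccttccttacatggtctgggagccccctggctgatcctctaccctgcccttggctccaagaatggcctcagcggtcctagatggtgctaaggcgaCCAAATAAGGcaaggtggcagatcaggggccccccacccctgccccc
Myh6: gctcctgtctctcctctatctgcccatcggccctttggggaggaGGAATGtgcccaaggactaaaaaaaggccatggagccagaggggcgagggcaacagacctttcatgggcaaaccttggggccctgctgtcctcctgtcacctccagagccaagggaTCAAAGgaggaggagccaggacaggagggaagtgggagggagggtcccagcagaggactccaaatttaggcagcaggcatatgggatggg
Tpm2: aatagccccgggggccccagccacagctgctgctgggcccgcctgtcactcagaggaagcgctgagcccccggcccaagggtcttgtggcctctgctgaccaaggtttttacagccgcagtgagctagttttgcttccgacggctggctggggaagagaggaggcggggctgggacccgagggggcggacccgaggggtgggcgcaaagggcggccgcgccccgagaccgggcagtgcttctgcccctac

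The Tnnt2 window held CATTCC 27 bases before the start and GATAA 166 and 245 bases before it. That of Actc1 held a CArG box at 47 bases, and that of Myh6 held CATTCC at 206 and CTTTGA at 90 bases. Tpm2 had none of the 5 in these 250 bases. Over all members, 31 matched the table with 42 windows. A CArG box was in 8 of them (19.0%, in Acta1, Actc1, Ldb3, Myl3, Myl7, Myom1 and Nebl), against 1.47% of all 32851 windows of this length. Windows of a gene can overlap, and the same Ldb3 site is counted in both Ldb3 windows, at 109 and 35 bases. CATTCC was in 12 (28.6%, against 12.6%), GATAA in 12 (28.6%, against 22.6%), a MEF2 site in 3 (7.14%, against 2.92%) and CTTTGA in 5 (11.9%, against 13.8%). These are matches of letters and were not set against the differences between groups.

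Of the 11 thick filament and M band genes, 7 read lower and 4 higher in mutant cells, with a median difference of −0.13, and none passed the test. Myl4, the atrial essential light chain, read 10.04, 10.75 and 10.52 against 9.72, 9.68 and 10.12. Wild-type replicate 1 lay among the mutant values. The difference was −0.59 (SE 0.21, 1.51-fold lower, adjusted p = 0.371). Myh6, the cardiac α-myosin heavy chain, read 10.36, 10.97 and 9.83 against 9.49, 9.50 and 10.14, a difference of −0.67 (SE 0.31, 95% interval −1.39 to 0.04). The groups overlapped through wild-type replicate 3 and mutant replicate 3. Both Myh6 probe sets read lower, the other by 0.53, and both Myl4 probe sets read lower, the other by 0.31 with groups that did not overlap. Myl7, the atrial regulatory light chain, read 9.25, 10.38 and 9.95 against 9.23, 9.61 and 9.87, a difference of −0.29 (SE 0.30).

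Myh7, the β-myosin heavy chain of ventricle and slow muscle, read 10.09, 10.74 and 11.11 against 10.70, 10.90 and 10.70, a difference of 0.12 (SE 0.25). The mutant values lay inside the wild-type range. A pair of probe sets that match both Myh6 and Myh7 and so belong to neither stood at −0.20 and −0.71. Myl2, the ventricular regulatory light chain, read 7.97, 9.87 and 10.002 against 9.32, 9.24 and 8.89, and Myl3, the ventricular essential light chain, 7.95, 9.26 and 9.01 against 8.60, 9.31 and 8.70. For both, wild-type replicate 1 was the lowest of the 6 arrays, and their differences of −0.13 and 0.13 had SE of 0.50 and 0.35. Myl1, the fast skeletal light chain, read 4.61, 6.43 and 5.57 against 6.34, 6.22 and 5.83, where the lowest wild-type value was below background.

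Titin, myosin-binding protein C and the M band genes overlapped between the groups. The Ttn probe set with the highest mean read 8.76, 9.37 and 7.56 against 8.39, 8.26 and 8.77, and the wild-type values spanned the mutant ones. All 6 Ttn probe sets read lower in mutant cells, from −0.51 to −0.09. Mybpc3, cardiac myosin-binding protein C, stood at −0.32 (SE 0.23) and Myom1, myomesin 1, at −0.16 (SE 0.15). Myom2, myomesin 2, was the member with the widest spread, reading 3.96, 7.07 and 5.08 against 4.21, 6.14 and 6.86; its 3 other probe sets were below background.

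**Figure D2:**
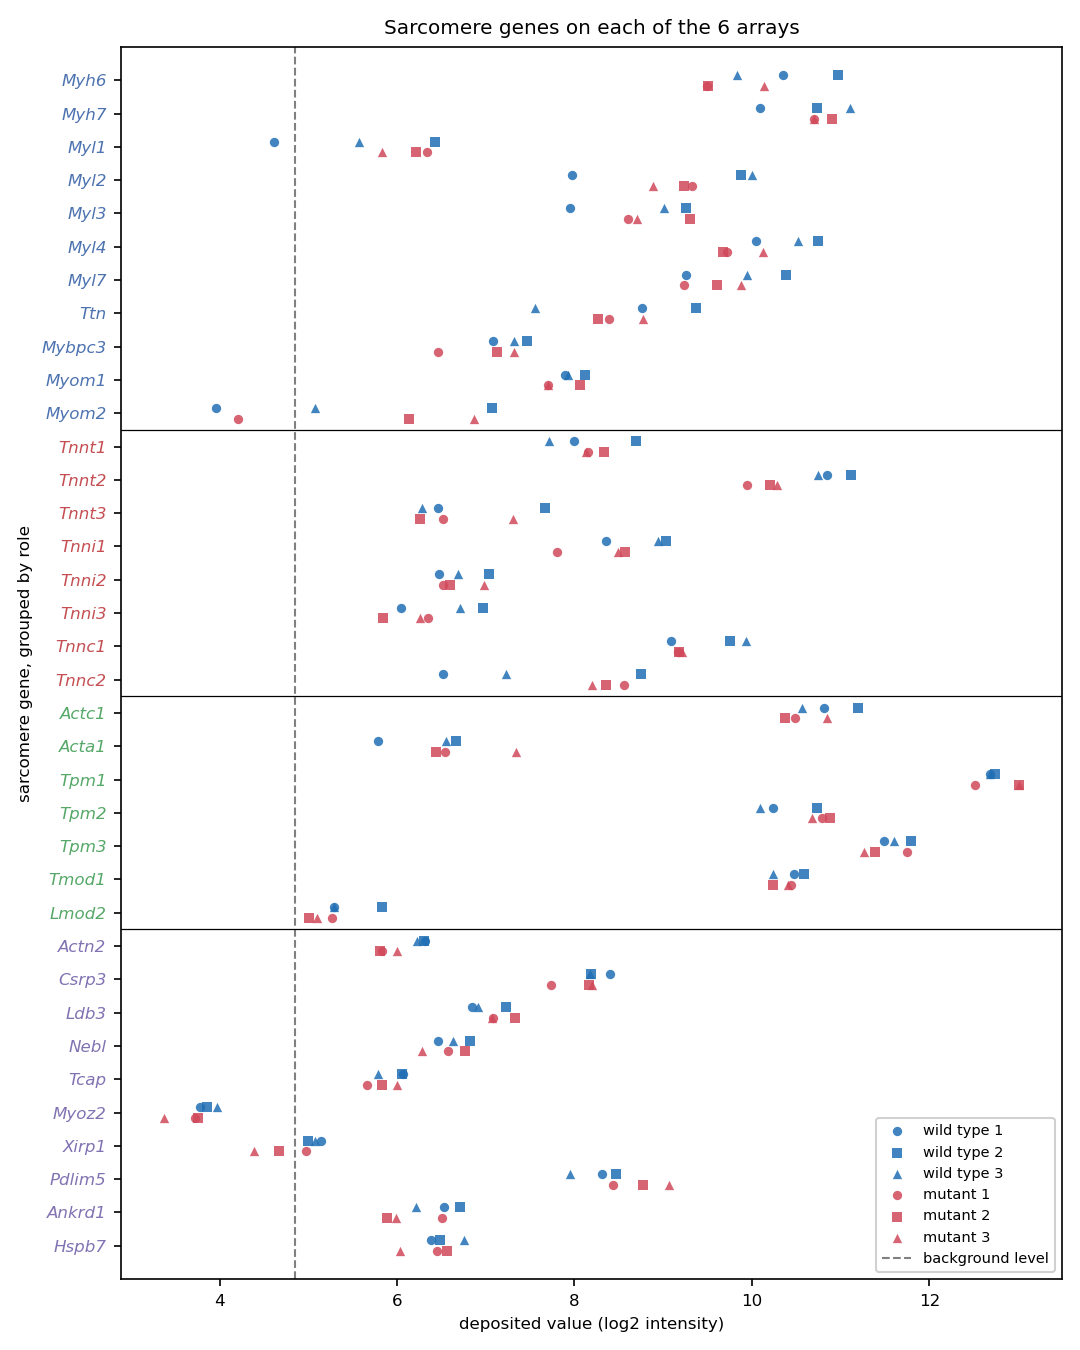
Deposited log2 value (horizontal axis) of each sarcomere gene on each of the 6 arrays, 3 wild type in blue and 3 mutant in red, with marker shapes for replicates 1 to 3, horizontal lines between the roles and a dashed line at the background level of 4.85. Wild-type replicate 2 (blue squares) is the highest of the wild-type values for 27 of the 36 genes; levels of different genes come from different probes and are not comparable.

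In the troponin complex, which makes the thin filament respond to calcium, 6 of 8 genes read lower in mutant cells, with a median difference of −0.26, and none passed the test. Tnnt2, cardiac troponin T, which ties the complex to tropomyosin, read 10.85, 11.12 and 10.74 against 9.94, 10.21 and 10.28. The highest mutant value was below the lowest wild-type value. The means were 10.90 ± 0.19 and 10.14 ± 0.18 (SD, n = 3), 1.69-fold lower in mutant cells, with a 95% interval of the log2 difference from −1.12 to −0.40, and limma's adjusted p was 0.187. A further Tnnt2 probe set gave 10.72, 11.08 and 10.71 against 9.96, 10.07 and 10.14, also without overlap, while the remaining one, which was dimmer, stood at −0.11.

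Tnnc1, the calcium-binding troponin C of heart and slow muscle, read 9.09, 9.75 and 9.94 against 9.16, 9.17 and 9.22. The mutant values lay within 0.06 of each other and just above wild-type replicate 1. Tnni3, the inhibitory subunit of the mature heart, read 6.05, 6.97 and 6.71 against 6.35, 5.85 and 6.26, and Tnni1, the slow skeletal form that the embryonic heart also uses, 8.35, 9.03 and 8.94 against 7.81, 8.57 and 8.50. The differences of Tnnc1, Tnni3 and Tnni1 were −0.41, −0.42 and −0.48, with SE of 0.22 to 0.26 and intervals that include 0. For each of these 3 genes it was wild-type replicate 1 that overlapped the mutant values.

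Of the skeletal subunits, Tnnc2, fast troponin C, had the highest difference of any member, 0.87 (SE 0.50, adjusted p = 0.537). It read 6.52, 8.75 and 7.23 against 8.55, 8.35 and 8.20, so that the wild-type arrays spanned 2.23 and included the highest value. Tnnt1, the slow skeletal troponin T, Tnnt3, the fast one, and Tnni2, fast troponin I, stood at 0.07, −0.11 and −0.04 with SE of 0.24, 0.41 and 0.19. A Tnni2 probe set of lower mean read −0.41 with groups that did not overlap, against −0.04 and −0.00 in its other probe sets.

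Of 7 thin filament genes, 4 read lower and 3 higher (median −0.07), none of which passed. The tropomyosins, which cover the myosin-binding sites of actin, had differences of both signs. Tpm2, β-tropomyosin, read 10.24, 10.73 and 10.09 against 10.79, 10.88 and 10.68; only wild-type replicate 2 reached the mutant values. The difference was 0.43 (SE 0.18, 1.35-fold higher, adjusted p = 0.431). All 4 Tpm2 probe sets read higher, by 0.43 to 0.69, and in 2 of them the groups did not overlap, at 0.65 and 0.69. Tpm1, α-tropomyosin, read higher in all 4 probe sets, by 0.06 to 0.59, and the groups did not overlap in the probe set at 0.59. Tpm3, a form of slow muscle and of non-muscle cells, read lower in 4 of 5, with 2 probe sets at −0.42 and without overlap.

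The sarcomeric actins did not separate. Actc1, cardiac α-actin and the main actin of the early heart, read 10.81, 11.20 and 10.56 against 10.49, 10.37 and 10.85, a difference of −0.29 (SE 0.20). Acta1, skeletal α-actin, read 5.79, 6.67 and 6.55 against 6.54, 6.43 and 7.34, a difference of 0.44 (SE 0.31). Lmod2, a leiomodin that lengthens cardiac thin filaments, read 5.29, 5.83 and 5.28 against 5.27, 5.01 and 5.09, near background and with a gap of 0.02. Tmod1, the tropomodulin that caps the pointed end of the filament, stood at −0.07 (SE 0.14), and its values lay between 10.23 and 10.59.

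At the Z disc, 8 of 10 genes read lower in mutant cells, with a median difference of −0.20, and none passed the test. Actn2, the α-actinin that crosslinks thin filaments there, read 6.31, 6.31 and 6.22 against 5.83, 5.80 and 6.002. The wild-type values were within 0.09 of each other and all above the mutant ones. The difference was −0.40 (SE 0.12, 1.32-fold lower, adjusted p = 0.300). Xirp1, an actin-binding repeat protein, read 5.14, 4.998 and 5.08 against 4.98, 4.66 and 4.39, and Myoz2, a calcineurin-binding Z disc protein, 3.77, 3.85 and 3.97 against 3.72, 3.76 and 3.37. The mutant mean of Xirp1 and both means of Myoz2 lay below background.

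Among the other Z disc genes, Pdlim5, a PDZ and LIM protein that is also made outside muscle, had the largest difference, reading 8.31, 8.46 and 7.95 against 8.43, 8.77 and 9.06 (difference 0.51, SE 0.20, adjusted p = 0.403). All 7 of its probe sets read higher, by 0.06 to 0.60, and in 2 of them the groups did not overlap, with gaps of 0.07 and 0.06. Ankrd1, a titin-binding stress-response protein, stood at −0.35 (SE 0.21), Csrp3, muscle LIM protein, at −0.22, Hspb7, a small heat shock protein of heart, at −0.19, Tcap, which binds the end of titin, at −0.14, and Ldb3, the PDZ and LIM protein cypher, at 0.17. Nebl, nebulette, stood at −0.09 in the probe set with the highest mean, but a second probe set read 6.23, 6.67 and 5.89 against 5.03, 5.20 and 5.64, a difference of −0.97 (95% interval −1.53 to −0.41, adjusted p = 0.253 over probe sets) with groups that did not overlap.

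Of the 15 members with several probe sets, all probe sets read lower in 6 (Myh6, Myl4, Ttn, Tnnt2, Tnni2 and Nebl) and all higher in 4 (Tpm1, Tpm2, Pdlim5 and Myom2), and signs were mixed in 5 (Myl3, Tpm3, Ankrd1, Hspb7 and Ldb3). Over all 75 probe sets, 46 read lower and 29 higher, and none passed when all 34945 single-gene probe sets were tested (0.0229% of which passed); 8 were lower and 6 higher at an unadjusted p under 0.05. The groups did not overlap in 13 lower probe sets (17.3%, against 9.04% of all probe sets) and in 5 higher ones (6.67%, against 8.45%). Probe sets of a gene share its transcripts and are not independent.

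**Figure D3:**
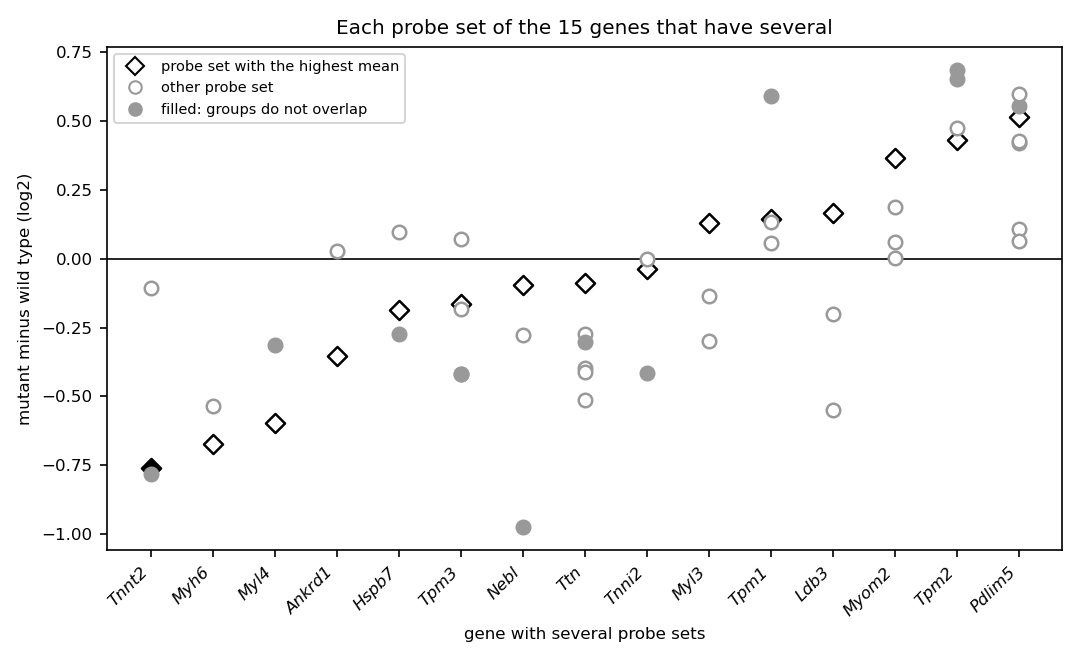
Difference between mutant and wild type (log2, vertical axis) of each probe set of the 15 sarcomere genes that have several; black diamonds are the probe set with the highest mean, grey circles the others, and filled symbols those in which the 3 mutant and 3 wild-type values do not overlap. Tnnt2 lies lowest by its leading probe set at −0.76, Nebl has a single probe set at −0.97, and those of Pdlim5, Tpm2, Tpm1 and Myom2 all lie above 0.

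The wild-type arrays differed among themselves in sarcomere genes. Wild-type replicate 2 gave the highest of the 3 wild-type values in 27 of 36 members, against 31.9% of all genes, and the highest of all 6 arrays in 21, against 16.8%. Wild-type replicate 1 gave the lowest wild-type value in 21 members, against 37.5% of all genes. Relative to the wild-type mean, the mean of the members was −0.29, 0.36 and −0.07 against −0.20, −0.08 and −0.01, so the mutant arrays lay between wild-type replicates 1 and 2. The spread was widest in the thick filament and M band genes, at −0.56, 0.58 and −0.02 in wild type, and narrowest at the Z disc, at −0.01, 0.08 and −0.06.

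Markers of skeletal muscle precursors also differed among the wild-type arrays. Myog, a transcription factor of differentiating skeletal muscle, read 5.37, 9.08 and 7.74 against 6.77, 7.18 and 7.33, and Myf5, an earlier one, read 4.55, 6.53 and 5.17 against 4.13, 5.24 and 4.82. The mean of the 10 measured skeletal markers was −0.53, 0.35 and 0.18 against −0.36, −0.09 and −0.24, relative to the wild-type mean. Myf6 and Chrna1, of the same list, averaged at or below background, and 0 of the 10 passed. The part of these markers in the values of the skeletal sarcomere genes was not tested.

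Leaving out single arrays changed which members did not overlap. Groups apart on all 6 arrays stay apart when an array is removed, so these counts can only hold or grow, for all genes too. When wild-type replicate 1 was dropped, 11 members were lower (30.6%, against 16.5% of all genes) and none higher. Myl2, Myl4, Myl7, Tnnc1, Tnni1 and Tnni3 joined the 5, and the median difference was −0.27. By Kdm5d, both wild-type arrays kept in this fit differ in sex from every mutant array. Genotype and embryo sex therefore cannot be told apart in it, for the members or for all genes. Without wild-type replicate 2 there were 5 lower members (13.9%, below the 14.8% of all genes) and 6 higher ones (16.7%, against 12.8%), for a median of −0.06. The 6 higher members were Ldb3, Myl1, Pdlim5, Tnnc2, Tnnt1 and Tpm2. Without wild-type replicate 3, 9 members (25.0%) were lower and none higher, against 14.0% and 13.2% of all genes. Without mutant replicate 1, 7 members (19.4%) were lower and 2 higher (5.56%), against 18.5% and 14.9%. With mutant replicate 2 left out, 6 (16.7%) were lower and none higher, against 15.6% and 12.1%, and with mutant replicate 3 left out 9 (25.0%) were lower and 1 higher (2.78%), against 13.2% and 12.2%. The share of lower members was thus within 2 percentage points of that of all genes in 3 of these 6 fits. No member passed the adjusted test in any of these fits.

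Among sarcomere genes outside the members, of 32 measured none passed, 22 read lower and 10 higher, and the median was −0.10. Mybpc1, the slow skeletal myosin-binding protein C, read 6.04, 6.09 and 5.95 against 7.26, 7.54 and 6.76. All mutant values were above all wild-type ones, at a difference of 1.16 (SE 0.20, adjusted p = 0.140). Myh3, the embryonic skeletal myosin heavy chain, read 7.07, 9.57 and 7.87 against 9.12, 9.96 and 9.95 (difference 1.51, SE 0.59), and Myot, myotilin, was below background.

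Genes around the sarcomere also held no call, and the lists differed in direction. Of 24 non-muscle paralogs of the contractile proteins, 17 read higher and 7 lower with a median of 0.17; Actn4, a non-muscle α-actinin, stood at 0.39 (SE 0.12), Pdlim1 at 0.73 and Zyx, zyxin of focal adhesions, at 0.42, each without overlap. Of 21 costamere, intercalated disc and intermediate filament genes, 14 read higher (median 0.09), with the gap junction protein Gja5 at −0.53, the adhesion protein Parva at 0.50 and the desmosomal Pkp2 at 0.58. Of 17 chaperone and turnover genes, 11 read lower (median −0.24), with Fbxo32, a ubiquitin ligase subunit of muscle, at −1.10, Klhl41 at 0.96 and the chaperone Hsp90aa1 at −0.38. In calcium handling and excitation 13 of 19 read lower (median −0.19), with the calcium channel subunit Cacna2d2 at −0.72, the natriuretic peptide Nppa at 1.16 and Asph at 0.67. In muscle energy supply 7 of 14 read lower (median −0.00), with Ckmt2, below background, at −0.47, muscle glycogen phosphorylase Pygm, below background in mutant cells, at −0.44 and the enolase Eno3 at 0.54.

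By their list mean, transcriptional regulators of muscle genes stood lower on each mutant array than on any wild-type array. This list was chosen with earlier results of these data known, so the separation is not independent of them. It includes Isl1, the gene from which Cre is expressed. The mean of 25 measured regulators was −0.02, 0.08 and −0.05 against −0.39, −0.40 and −0.32 when set to the wild-type mean. The median difference was smaller, −0.21; 19 read lower, 6 of 25 (24.0%) without overlap, against 9.18% of all genes, and none passed. Smyd1, a histone methyltransferase needed for cardiac muscle, read 8.02, 8.33 and 8.50 against 6.76, 6.68 and 7.21. Myocd, the SRF coactivator myocardin, read 8.28, 7.79 and 7.51 against 6.18, 6.71 and 6.49, and Tbx20, a cardiac T-box factor, 9.30, 8.85 and 9.40 against 8.06, 8.62 and 8.04. Their differences were −1.40, −1.40 and −0.94 (adjusted p = 0.0881, 0.131 and 0.220), and no test set them against those of the sarcomere genes.

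**Figure D4:**
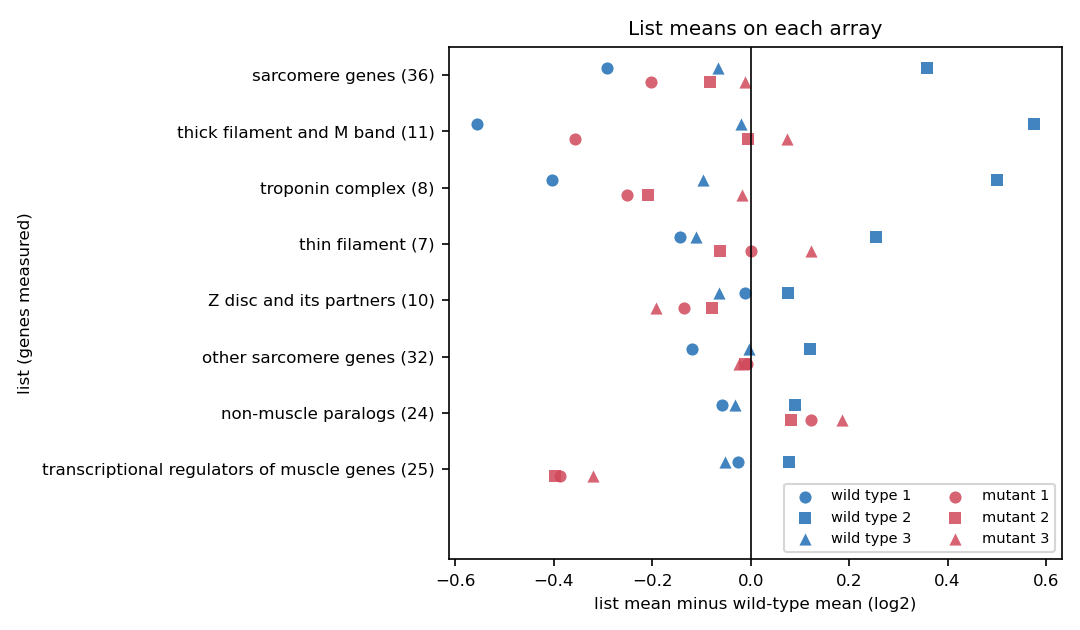
Mean log2 value of each list on each array, relative to the mean of the 3 wild-type arrays (horizontal axis), for all sarcomere genes, their 4 roles, other sarcomere genes, non-muscle paralogs and transcriptional regulators, with the number of genes measured in brackets; wild type is blue and mutant red. The sarcomere genes on the mutant arrays lie between −0.20 and −0.01, inside the wild-type range of −0.29 to 0.36, while the regulators lie between −0.40 and −0.32 on the mutant arrays. All lists were chosen with earlier results of these data known.

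Marker lists of other cell types also differed between these samples, relative to the wild-type mean. The mean of 11 endothelial markers was −0.45 to 0.35 in wild-type and 0.40 to 0.73 in mutant samples, that of 7 neural crest markers −0.17 to 0.25 and 0.31 to 0.67, and that of 7 surface ectoderm markers −0.29 to 0.30 and 0.49 to 1.42. For 9 neuronal markers it was −0.34 to 0.55 against −1.13 to −0.06, for 9 visceral and gut endoderm markers −0.92 to 0.76 against −1.52 to −0.02, for 8 primitive erythroid markers −0.35 to 0.21 against −0.93 to 0.34, and for 8 smooth muscle markers −0.05 to 0.08 against −0.09 to 0.15. No member of these lists passed and none averaged below background. In sorted bulk cells, the share of cardiac muscle cells and the sarcomere RNA per cell cannot be told apart, in either direction. The part of these markers in the sarcomere values was not tested.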

How the data were processed

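RNA of 6 samples (3 wild type, 3 mutant) was extracted with Trizol, amplified (WT-Ovation Pico), labelled with biotin and hybridised to Affymetrix arrays, per the labels' protocols. The authors deposited 1 value per probe set and array on a log2 scale; how background, summarisation and normalization were handled was not given in the sources used here. That scale was inferred from the range of values (1.89 to 15.07), and array medians lay between 6.47 and 6.50, so no further scaling was applied. Gene names came from the platform annotation in GEO and were brought up to date through Entrez identifiers in a RefSeq table, where 34741 of 34945 single-gene probe sets matched. Groups were compared by limma's moderated test (version 3.58.1, under R 4.3.3), two-sided and with no covariate, on 4 residual plus 3.45 prior degrees of freedom, Benjamini-Hochberg adjusted over 18193 genes at 0.05; all adjusted p-values come from this fit unless said to be over probe sets. The fit was run on simulated normal noise with added changes larger than any member's difference. That run does not tell how well changes of the members' size are found. No dim gene was removed. With 3 samples a group, the smallest exact permutation p is 0.1. The number of arrays limits the precision. The members and lists were chosen with earlier results of these data known. All members are named, with the 3 genes of smallest p in each related list, and Isl1, Ctnnb1, Smyd1 and Myocd; Kdm5d, Myog, the other skeletal markers named and Nkx2-5 were named after their values were seen. Alternatives were a replicate block, quantile normalization, median centring, a filter on dim genes, other probe set choices, a trended robust prior, array weights and leaving out each array. Listed genes lacking such a probe set were not analysed here. Genome coordinates are those of the RefSeq promoter table, and no array coordinates were used.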

Additional observations from a re-analysis of the deposited data

How the results depend on the processing

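No sarcomere gene was called, in either direction, under any of the 14 alternatives, and the lowest adjusted p in them was 0.128, for Tnnt2. The sign of the difference held in every alternative for 24 of 36 members. It reversed with the most variable probe set for Ldb3 (−0.55) and Ankrd1 (0.029), and with the mean of the probe sets for Myl3 (−0.10) and Ldb3 (−0.19). With single arrays left out it reversed for 10 members, whose differences ranged from −0.16 to 0.35 (Myh7), −0.26 to 0.39 (Myl3), −0.59 to 0.32 (Ttn), −0.34 to 1.22 (Myom2), −0.79 to 0.23 (Myl2), −0.41 to 0.33 (Tnnt3), −0.18 to 0.12 (Tnni2), −0.17 to 0.012 (Tmod1), −0.14 to 0.35 (Tnnt1) and −0.21 to 0.037 (Nebl). The 5 lower members without overlap became 1 without the dimmest 40% of genes, which removes the other 4 from the test, and 8 of 36 (22.2%) with the most variable probe set or the mean of the probe sets, where 9.24% and 9.76% of all genes were lower; each also gave 1 higher member (2.78%, against 8.45% and 8.79%). With single arrays left out there were 5 to 11 lower and 0 to 6 higher, counts that by construction cannot drop below 5 and 0. The median difference of the members was −0.27 to −0.06 with single arrays left out. Both the 11 lower members and the −0.27 came from dropping wild-type replicate 1, where by Kdm5d genotype and embryo sex coincide. Over all genes, 12 higher calls became 0 with the replicate block, 6 with arrays centred on the median, and 1 with the most variable probe set or the mean of the probe sets, and 0 to 81 higher and 0 to 11 lower with single arrays left out. The cause was not tested.

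The replicate numbers were not taken to pair the samples: same-numbered arrays' deviations from their group means correlated at 0.108, −0.075 and −0.016 across genes, and only the first pair correlated best with its own number. With the replicate block the number of sarcomere genes called was 0, as without it.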
